A study of Mus musculus with 9 samples.

Results

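Skeletal muscle and fat (white adipose) tissue genes were described in bulk RNA sequencing of mouse tumours. The 32 genes, 20 of skeletal muscle and 12 of fat cells, were picked by symbol as markers of the muscle and adipose tissue that can lie beside a tumour, and all 32 were among the 42454 gene names of the count tables. They were picked with their levels in these tumours known, so the levels are given as a description and support nothing on their own. The 9 tumours were grown from MC38, a mouse colorectal carcinoma line, in C57BL/6J animals and harvested at day 21 after inoculation. In the vector control group (Vec, n = 4, genotype WT) the cells carried the vector, and in the other group (CD43-KO, n = 5) the same line lacked CD43, a sialomucin of the leukocyte surface encoded by Spn. The labels name no site of inoculation, no clone and no age or sex of the mice, and each library was made from whole tumour tissue. Replicates are numbered in order of deposition, and nothing in the labels says more than that each is a separate sample, so p-values measure the spread between these samples.

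Skeletal muscle fibres contract when calcium, released from the sarcoplasmic reticulum, binds troponin on the actin filament and lets myosin pull on it. Fast fibres and slow fibres carry different versions of most of these proteins, and the fast fibres themselves differ in their myosin heavy chain (types 2B, 2X and 2A). White fat cells store triglyceride in a droplet coated by perilipins and release hormones, the adipokines.

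Levels are given as CPM, counts relative to the depth of the library, scaled by TMM, a factor that corrects for differences in library composition. Vec libraries held 60751738 to 72114385 counts and CD43-KO libraries 44814061 to 62194418, the fewest being those of CD43-KO replicate 3. Spn itself stood at 41.0, 43.7, 44.6 and 53.8 CPM in Vec tumours and at 25.6, 33.6, 31.2, 23.0 and 6.81 CPM in CD43-KO replicates 1 to 5. All CD43-KO tumours lay below all Vec tumours, and since host leukocytes in the tissue also express Spn, its level in the cancer cells cannot be told apart from theirs. CD43-KO replicate 3 stood apart from every other tumour, so each result below is given with and without it. It had 129 genes at 1 CPM or more and over 5 times the level of each other tumour, against 0 to 6 such genes in any other tumour. Of the 129, 13 were muscle genes and 9 were fat genes of the 32.

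The start-site regions of the genes were searched for short motifs that muscle and fat transcription factors, and the general machinery at the TATA box, are known to read. Of the 32 genes, 25 had an entry in the RefSeq promoter table (GRCm38.p6), 16 of muscle and 9 of fat, and the windows were searched on both strands from 250 bases before to 50 bases after the start site. Printed here, 5′ to 3′, are 250 bases before and 30 after it for Acta1, the skeletal actin gene and the most abundant muscle gene per length in CD43-KO replicate 3, for the 3 adult fast myosin heavy chains that lie side by side on chromosome 11, and for the leptin and perilipin 1 genes. These 6 were chosen after the values were seen. Lep and Plin1 were picked because their windows held a C/EBP match, which was found in 3 of the 9 fat genes. The capitals in their sequences thus follow from the choice. Capitals mark a match to the MEF2 motif, the CArG box or the TATA box (TATAAA) in muscle genes, and to the C/EBP motif (TTGCNNAA) in fat genes.
Acta1, chr8:123894746-123895025, minus strand: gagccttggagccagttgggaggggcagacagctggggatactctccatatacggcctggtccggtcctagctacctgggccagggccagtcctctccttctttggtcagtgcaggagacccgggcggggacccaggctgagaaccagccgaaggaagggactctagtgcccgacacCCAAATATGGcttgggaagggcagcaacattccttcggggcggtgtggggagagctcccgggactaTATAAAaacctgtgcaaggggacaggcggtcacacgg
Myh4, chr11:67237562-67237841, plus strand: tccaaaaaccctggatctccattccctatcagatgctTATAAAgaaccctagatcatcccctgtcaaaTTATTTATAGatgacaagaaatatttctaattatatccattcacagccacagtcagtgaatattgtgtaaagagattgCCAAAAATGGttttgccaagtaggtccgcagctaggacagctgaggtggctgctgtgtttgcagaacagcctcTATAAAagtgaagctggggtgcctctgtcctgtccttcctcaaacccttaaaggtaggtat
Myh1, chr11:67199852-67200131, plus strand: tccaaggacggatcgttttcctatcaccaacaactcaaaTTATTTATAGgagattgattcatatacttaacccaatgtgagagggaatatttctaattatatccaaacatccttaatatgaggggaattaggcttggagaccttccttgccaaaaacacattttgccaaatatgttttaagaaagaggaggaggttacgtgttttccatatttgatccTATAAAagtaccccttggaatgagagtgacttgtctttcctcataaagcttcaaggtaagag
Myh2, chr11:67170777-67171056, plus strand: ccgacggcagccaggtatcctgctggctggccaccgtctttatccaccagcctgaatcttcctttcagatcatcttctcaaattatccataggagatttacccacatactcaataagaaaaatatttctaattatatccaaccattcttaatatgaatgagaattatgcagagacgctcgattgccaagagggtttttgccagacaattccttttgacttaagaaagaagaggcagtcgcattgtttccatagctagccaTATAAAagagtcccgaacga
Lep, chr6:29059971-29060250, plus strand: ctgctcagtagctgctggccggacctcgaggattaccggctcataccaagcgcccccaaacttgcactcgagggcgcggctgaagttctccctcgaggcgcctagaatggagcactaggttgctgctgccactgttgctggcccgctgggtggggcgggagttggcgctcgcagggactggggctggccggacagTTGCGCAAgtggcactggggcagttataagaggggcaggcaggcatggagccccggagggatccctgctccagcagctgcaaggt
Plin1, chr7:79732747-79733026, minus strand: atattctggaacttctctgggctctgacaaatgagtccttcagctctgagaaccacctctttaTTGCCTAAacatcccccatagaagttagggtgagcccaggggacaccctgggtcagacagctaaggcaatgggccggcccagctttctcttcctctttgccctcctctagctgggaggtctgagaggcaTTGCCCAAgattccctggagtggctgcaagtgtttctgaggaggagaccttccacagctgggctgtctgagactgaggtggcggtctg

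In these windows Myh4 held a MEF2 match whose first base lay at position -182 from the start site and a CArG box at -104, Myh1 a MEF2 match at -211, and Acta1 a CArG box at -73. Myh2 held only a TATA box among the 3 motifs marked in muscle genes, at position 11 after the start site. Positions count from the RefSeq start site, which can differ between annotations. For Myh4 the gene start in the GENCODE annotation (67238029) lies past the end of the printed window (67237841). In both Myh4 and Myh1 a TATA box on the minus strand overlapped the MEF2 match. MEF2 motifs were found in 4 of the 16 muscle genes (Myh1, Myh4, Pvalb and Ttn) and in 3.19% of all 32851 windows in the table. A gene was counted if any of its windows held the motif. The percentages count single windows, so gene counts and percentages are not strictly alike. CArG boxes were found in 2 of 16 and in 1.63% of all windows, and TATAAA in 6 of 16 and in 13.6%. C/EBP motifs stood in 3 of the 9 fat genes (Cidec, Lep and Plin1), in 4 of the 16 muscle genes and in 10.8% of all windows. The nuclear receptor motif AGGTCA was in 0 of the 9 fat genes, 3 of the 16 muscle genes and 16.3% of all windows. The M-CAT motif (CATTCC) was in 6 of the 16 muscle genes, 1 of the 9 fat genes and 14.7% of all windows. E-boxes (CANNTG), the letters read by MyoD-type factors, were in 13 of 16 muscle genes, 9 of 9 fat genes and 72.3% of all windows. A match is a run of letters only, and no binding was measured.

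In the sum over the 20 muscle genes, Vec tumours had 226, 247, 257 and 260.0 CPM, and CD43-KO replicates 1 to 5 had 184, 260.4, 1806, 245 and 218 CPM. A single tumour was high and the other 8 lay between 184 and 260.4 CPM. Eno3, the enolase of muscle, had the highest median level per kilobase of exon among the 20 in those 8 tumours (65.2 CPM per kilobase, with Acta1 next at 25.8), and was at 102, 93.6, 105 and 132 CPM in Vec and 78.5, 81.2, 108, 104 and 102 CPM in CD43-KO tumours. A numbered copy name of Eno3 was also listed among the gene names, and its counts are not in these values. Without Eno3, the 19 other genes summed to between 105 and 179 CPM in 8 tumours and to 1698 CPM in CD43-KO replicate 3, which was 12.7 times the median of the others. The 12 fat genes summed to 83.0, 128, 114 and 120 CPM in Vec and to 69.4, 93.3, 1047, 52.3 and 71.4 CPM in CD43-KO tumours, so the same tumour was high, at 11.9 times the median of the others. In bulk tissue, more cells of a type and more RNA per cell cannot be told apart.

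**Figure D1:**
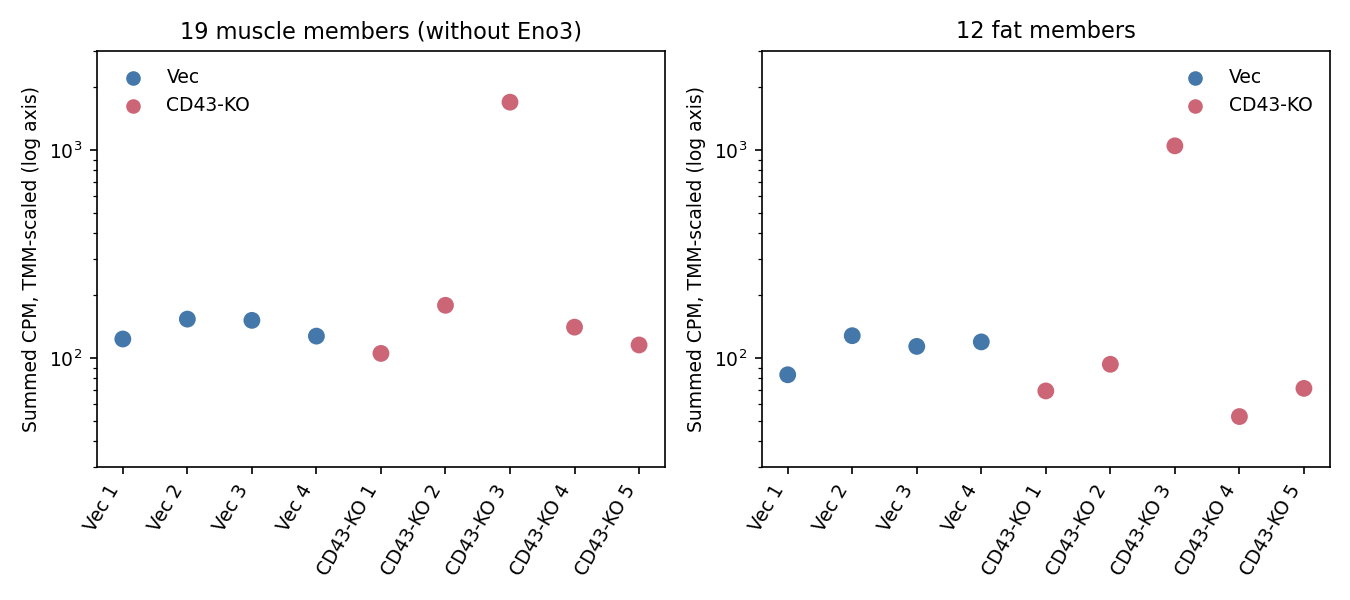
Summed TMM-scaled CPM of the 19 muscle genes other than Eno3 (left) and of the 12 fat genes (right), log axis, 1 point per tumour, Vec in blue and CD43-KO in red. CD43-KO replicate 3 lies at 1698 and 1047 CPM, above the other 8 tumours, which reach 179 and 128 CPM.

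CD43-KO replicate 3 was the highest of the 9 tumours for 19 of 20 muscle genes and 11 of 12 fat genes, where it was highest for 22.8% of all 18243 genes tested. It exceeded 5 times the median of the other 8 tumours for 14 muscle genes and 10 fat genes, against 2.17% of all genes. The ratio to that median ran from 1.06 to 28.7 in muscle genes (median 10.1) and from 1.28 to 49.7 in fat genes (median 27.2). Pvalb had the highest ratio in muscle and Cfd in fat, while the lowest were Eno3 and Plin4, the 2 of the 32 that were not highest in this tumour. Just inside and just outside the 5-fold line lay Ryr1 at 5.56 and Ttn at 4.58 times the median.

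**Figure D2:**
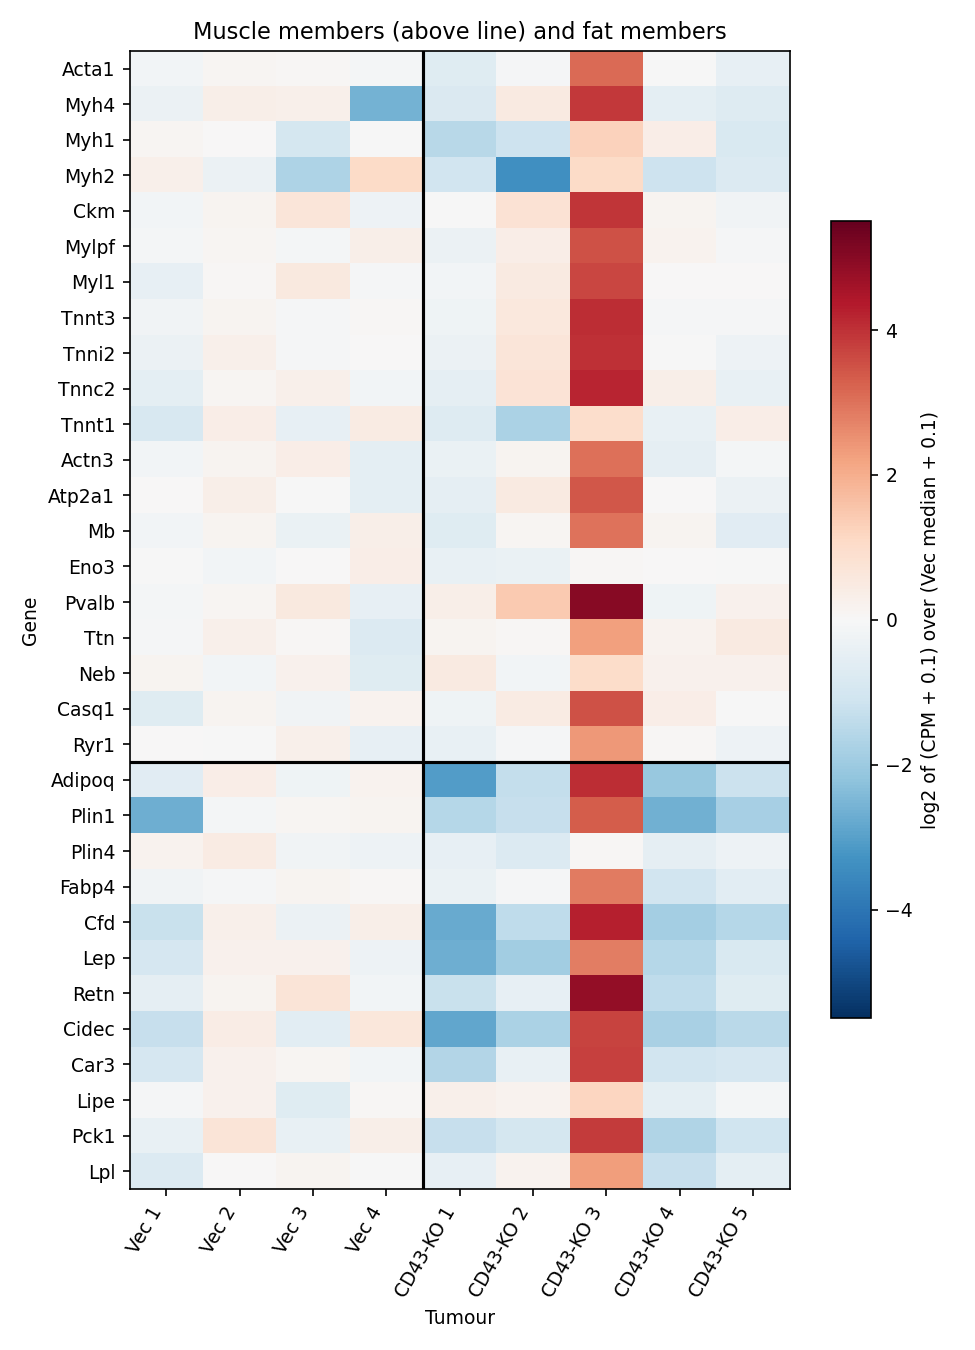
Each of the 32 genes (rows) in each tumour (columns), as log2 of CPM plus 0.1 over the Vec median plus 0.1, with muscle genes above the line and fat genes below it. The column of CD43-KO replicate 3 is red for nearly all rows, Eno3 and Plin4 being near 0, and most fat rows are blue in the other 4 CD43-KO tumours.

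Among the proteins of the thin filament, Acta1, the actin of the skeletal muscle filament (GRCm38 chromosome 8, 123891769 to 123894751), was at 36.1, 42.5, 41.9 and 37.3 CPM in Vec tumours and at 24.6, 37.3, 347, 39.0 and 29.0 CPM in CD43-KO tumours. The 8 tumours other than CD43-KO replicate 3 lay between 24.6 and 42.5 CPM, and Vec and CD43-KO tumours overlapped. Tnnt3, the fast troponin T that ties troponin to tropomyosin, was at 9.66, 12.4, 10.7 and 11.4 CPM in Vec and 9.49, 16.4, 185, 10.5 and 10.4 CPM in CD43-KO tumours. Fast troponin I, Tnni2, which holds the filament off at rest, was at 6.83 to 10.6 CPM in Vec tumours and at 6.85, 13.8, 142, 8.50 and 7.17 CPM in CD43-KO tumours. Both were high in a single tumour. For the calcium-binding Tnnc2 the Vec range was 4.28 to 7.51 CPM, and CD43-KO tumours had 4.29, 10.6, 113, 7.66 and 4.63 CPM. In each of these 3 troponin genes CD43-KO replicate 2 was the next highest tumour, far below replicate 3. Over all 20 muscle genes, CD43-KO replicate 2 was second highest for 9.

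The thick filament gave a different pattern among its 3 myosins. Myh4, the heavy chain of type 2B fibres, was at 5.57, 8.77, 8.52 and 1.07 CPM in Vec and at 4.05, 9.87, 107, 4.87 and 4.31 CPM in CD43-KO tumours. Myh1, of type 2X fibres, was at 5.53, 5.35, 2.58 and 5.04 CPM in Vec and at 1.73, 2.28, 12.8, 6.62 and 2.84 CPM in CD43-KO tumours. Myh2, of type 2A fibres, had 1.17, 0.730, 0.225 and 2.05 CPM in Vec and 0.413, 0, 2.09, 0.375 and 0.524 CPM in CD43-KO tumours. The excess in CD43-KO replicate 3 was thus 20.4 times the median of the others for Myh4, 3.24 times for Myh1 and 4.46 times for Myh2, whose level there was close to that of Vec replicate 4. These genes are near copies of each other: 18.9% of the 50-base windows of the Myh4 transcript, 26.7% of Myh1 and 26.9% of Myh2 also occur in another gene, so how reads were split between them is uncertain. The light chains were clearer for Mylpf, the fast regulatory chain, at 11.5 to 15.7 CPM in Vec and 10.1, 16.3, 142, 14.2 and 12.03 CPM in CD43-KO tumours. Myl1, the fast essential chain, had 92.8 CPM in CD43-KO replicate 3 and 5.18 to 10.5 CPM elsewhere, and is uncertain because 23.4% of its windows occur in a pseudogene. A numbered copy name of Myl1 was also listed among the gene names, and its counts are not in these values.

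Within each tumour, the shares of the 3 myosins among their summed counts describe the mix of transcripts, as far as the reads of these near copies were split correctly. Myh4 took 87.8% of the 5237 counts of the 3 genes in CD43-KO replicate 3 (exact Clopper-Pearson 95% interval 86.9 to 88.7) and 81.2% of 788 in CD43-KO replicate 2 (78.3 to 83.9). In Vec tumours its share was 45.4%, 59.1%, 75.2% and 13.1%, and in CD43-KO replicates 1, 4 and 5 it was 65.4%, 41.0% and 56.2%. Vec replicate 4 was the tumour richest in Myh2, at 25.1% (21.1 to 29.4), and CD43-KO replicate 2 had 0 Myh2 counts, an upper limit of 0.467%. Shares spread widely within both groups and overlapped between them, and the intervals cover counting error only.

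**Figure D3:**
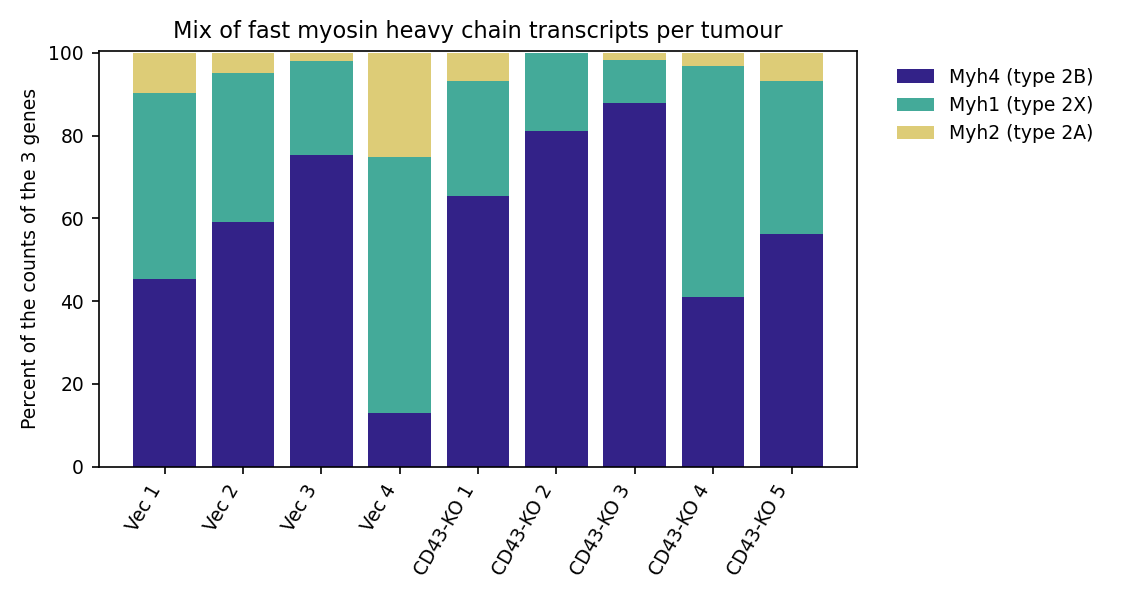
Percent of the summed counts of Myh4 (type 2B), Myh1 (type 2X) and Myh2 (type 2A) in each tumour, as stacked bars from 0 to 100. Myh4 runs from 13.1% in Vec replicate 4 to 87.8% in CD43-KO replicate 3.

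Most slow-fibre versions of the same proteins had little or none of the excess. Per kilobase of exon in CD43-KO replicate 3, fast Tnnt3 stood at 158 CPM and its slow partner Tnnt1 at 1.62 CPM, Tnni2 at 163 and Tnni1 at 1.28 CPM, and Tnnc2 at 161 and Tnnc1 at 4.25 CPM. The slow troponins I and C were no higher there than in other tumours, where Tnni1 ran from 1.36 to 2.82 and Tnnc1 from 2.65 to 6.06 CPM per kilobase. Tnnt1 was at 0.410, 1.10, 0.592 and 1.18 CPM in Vec and 0.474, 0.185, 1.74, 0.613 and 1.11 CPM in CD43-KO tumours, highest in replicate 3 at 2.89 times the median of the others. Slow myosin Myh7 and slow light chain Myl3 had 0 counts in CD43-KO replicate 3, and Myl2 had 3. In the other tumours Myh7 had 0 to 8 counts, Myl3 0 to 7 and Myl2 0 to 6, so these counts do not set replicate 3 apart. Of the 9 slow-fibre genes listed, 2 were highest in that tumour (Csrp3 at 5.83 CPM against 0.734 to 4.16, and Myoz2 at 1.18 against 0.199 to 1.12). Only 5 of the 9 had enough counts for a ratio to the median of the rest, and 0 of those passed 5 times. Mybpc1, a myosin-binding protein best known from slow fibres, had a larger excess, at 11.2 CPM there against 0.688 to 2.1 CPM elsewhere.

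Genes of the Z-disc, of calcium handling and of energy supply were high in the same tumour. Actn3, the fast Z-disc actinin, reached 29.0 CPM in CD43-KO replicate 3, with 2.31 to 4.48 CPM elsewhere. The giant proteins had lower ratios to the other tumours: Ttn (titin, the spring of the sarcomere) was at 7.29 CPM against 0.831 to 2.096, and Neb (nebulin, the thin-filament ruler) at 3.83 CPM against 1.11 to 2.66. Atp2a1, the pump that returns calcium to the reticulum in fast fibres, was at 85.6 CPM in that tumour and 5.39 to 11.3 CPM in the other 8. Casq1, which stores the calcium, had 13.7 CPM against 0.679 to 1.59, and Ryr1, the release channel, 8.38 CPM against 1.11 to 1.90. In all 3 of these calcium genes the other 8 tumours, Vec and CD43-KO alike, covered a common low range. Pvalb, parvalbumin, the calcium buffer of fast fibres, was at 5.18, 6.05, 8.21 and 4.03 CPM in Vec and 7.06, 15.4, 183, 4.79 and 6.71 CPM in CD43-KO tumours. Among energy genes, Ckm, muscle creatine kinase, reached 179.6 CPM in CD43-KO replicate 3, with 9.37 to 19.9 elsewhere, and Mb, myoglobin, at 42.7 CPM against 3.36 to 6.74.

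Fat genes were high in the same tumour, and for 5 of the 12 the other 4 CD43-KO tumours all lay below the Vec tumours, as they did for 7.34% of all genes tested in those 8 tumours. Cfd, adipsin, a complement factor secreted by fat cells (GRCm38 chromosome 10, 79890853 to 79892655), was at 7.43, 21.5, 14.0 and 22.3 CPM in Vec and 2.48, 6.64, 350, 4.79 and 5.83 CPM in CD43-KO tumours. Apart from replicate 3, every CD43-KO tumour lay below every Vec tumour. The same held for Adipoq, the adipokine adiponectin, at 1.88, 3.81, 2.51 and 3.38 CPM in Vec and 0.260, 1.11, 51.2, 0.613 and 1.25 CPM in CD43-KO tumours. Cidec, which fuses lipid droplets, was at 1.09, 3.66, 1.83 and 4.23 CPM in Vec and 0.290, 0.740, 37.7, 0.732 and 0.913 CPM in CD43-KO tumours, again without overlap once replicate 3 was set aside. Retn, the hormone resistin, was at 0.616, 1.01, 1.58 and 0.813 CPM in Vec and 0.336, 0.632, 29.2, 0.289 and 0.541 CPM in CD43-KO tumours, where the groups overlapped by 1 tumour.

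Lep, the satiety hormone leptin, was at 0.347, 0.909, 0.915 and 0.591 CPM in Vec and 0.0306, 0.123, 5.90, 0.187 and 0.372 CPM in CD43-KO tumours. Plin1, the perilipin of the fat droplet, was at 0.0316, 0.670, 0.803 and 0.831 CPM in Vec and 0.183, 0.247, 8.29, 0.0341 and 0.135 CPM in CD43-KO tumours, with a low of 2 counts. Plin4, another droplet coat protein, did not share the excess: it was at 13.8, 16.6, 10.6 and 10.1 CPM in Vec and 8.83, 7.14, 12.9, 8.65 and 10.02 CPM in CD43-KO tumours. Leptin was lower in 3 of the 4 other CD43-KO tumours than in any Vec tumour, and the second lowest Plin1 value of all was in CD43-KO replicate 4. Fabp4, the fatty acid carrier of fat cells, was at 31.4 to 39.8 CPM in Vec and 28.4, 34.2, 261, 17.4 and 24.5 CPM in CD43-KO tumours. Car3, a carbonic anhydrase abundant in fat and muscle, was at 6.25 to 13.7 CPM in Vec and 3.74, 8.88, 163, 5.57 and 6.20 CPM in CD43-KO tumours. Both had overlapping groups, with CD43-KO replicates 1, 4 and 5 below all Vec tumours. Lpl, the lipase that takes in fat from lipoproteins, reached 106 CPM in CD43-KO replicate 3, with 8.92 to 24.7 elsewhere, Lipe, hormone-sensitive lipase, at 17.2 against 4.79 to 9.32, and Pck1, an enzyme of glyceride synthesis, at 4.50 against 0 to 0.417 CPM. Pck1 did not pass the filter on low counts and has no test. Per kilobase of exon, the most abundant of the 32 in CD43-KO replicate 3 were Cfd at 379 CPM, Fabp4 at 291 CPM, Acta1 at 240.1 CPM and Pvalb at 176 CPM.

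Compared between groups over all 9 tumours, 0 of the 20 muscle genes and 0 of the 11 fat genes tested passed an adjusted p of 0.05 in edgeR's quasi-likelihood test, where 0% of the 18243 genes were called. At an unadjusted p under 0.05 stood 2806 genes, among them 1 muscle gene (Pvalb, log2 fold change 2.88 ± 1.18 SE, adjusted p = 0.297) and 0 fat genes. The log2 fold change, CD43-KO over Vec, was above 0 in 17 muscle genes and below 0 in 3, with a median of 1.42, and above 0 in 10 fat genes and below 0 in 1, with a median of 1.57. The median of all genes was 0.03. Adjusted p-values ran from 0.297 to 0.9997 in muscle and from 0.335 to 0.740 in fat genes. DESeq2 called 612 genes (3.35%) and limma voom 562 (3.08%), with 0 of the 32 in either, and DESeq2 gave no p for 14 muscle and 8 fat genes. Since the groups overlapped for all 32 genes, 0 were separated, where 2.08% of genes lay higher and 3.5% lower in CD43-KO without overlap.

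Without CD43-KO replicate 3 the muscle genes had a median log2 fold change of 0.0020, with 10 above and 10 below 0, and 0 at an unadjusted p under 0.05. The summed muscle level was 247 ± 15.5 CPM in Vec (SD, n = 4) and 226 ± 33.6 CPM in the 4 remaining CD43-KO tumours, against 542 ± 707 with all 5. Of the fat genes 10 of 11 were below 0, with a median log2 fold change of -1.16 (all genes 0.01), and only Lipe was above 0. The summed fat level was 111 ± 19.6 CPM in Vec and 71.6 ± 16.8 CPM in the 4 CD43-KO tumours, against 267 ± 436 with all 5. In edgeR, 0 of 18037 genes (0%) were called at an adjusted p of 0.05 without that tumour, 3473 had an unadjusted p under 0.05, and 9 of the 11 fat genes were among those. The lowest edgeR adjusted p in the fat genes was 0.101, for Adipoq (log2 fold change -1.85 ± 0.44 SE), Cfd (-1.73 ± 0.40) and Cidec (-2.02 ± 0.48).

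The tools differed on the fat genes in these 8 tumours. DESeq2, an alternative chosen after seeing the data, called 6.68% of all genes and 3.74% lower, among them 4 fat genes: Cfd (adjusted p = 0.00027), Cidec (adjusted p = 0.0020), Adipoq (adjusted p = 0.0024) and Plin4 (adjusted p = 0.047). It gave no adjusted p for Plin1 and Lep. Limma voom called 0 of the 32, with a lowest adjusted p of 0.051 in fat genes, and 490 genes in all (2.72%). The 4 remaining CD43-KO tumours lay below all 4 Vec tumours for 5 fat genes (Adipoq, Plin4, Cfd, Cidec and Pck1), 4 of them tested, against 7.34% of all genes. This held for 0 muscle genes, and 0 of the 32 lay above all Vec tumours, against 5.84% of all genes. With the list chosen on these tumours and 4 against 4 left, the lower fat level is a description.

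**Figure D4:**
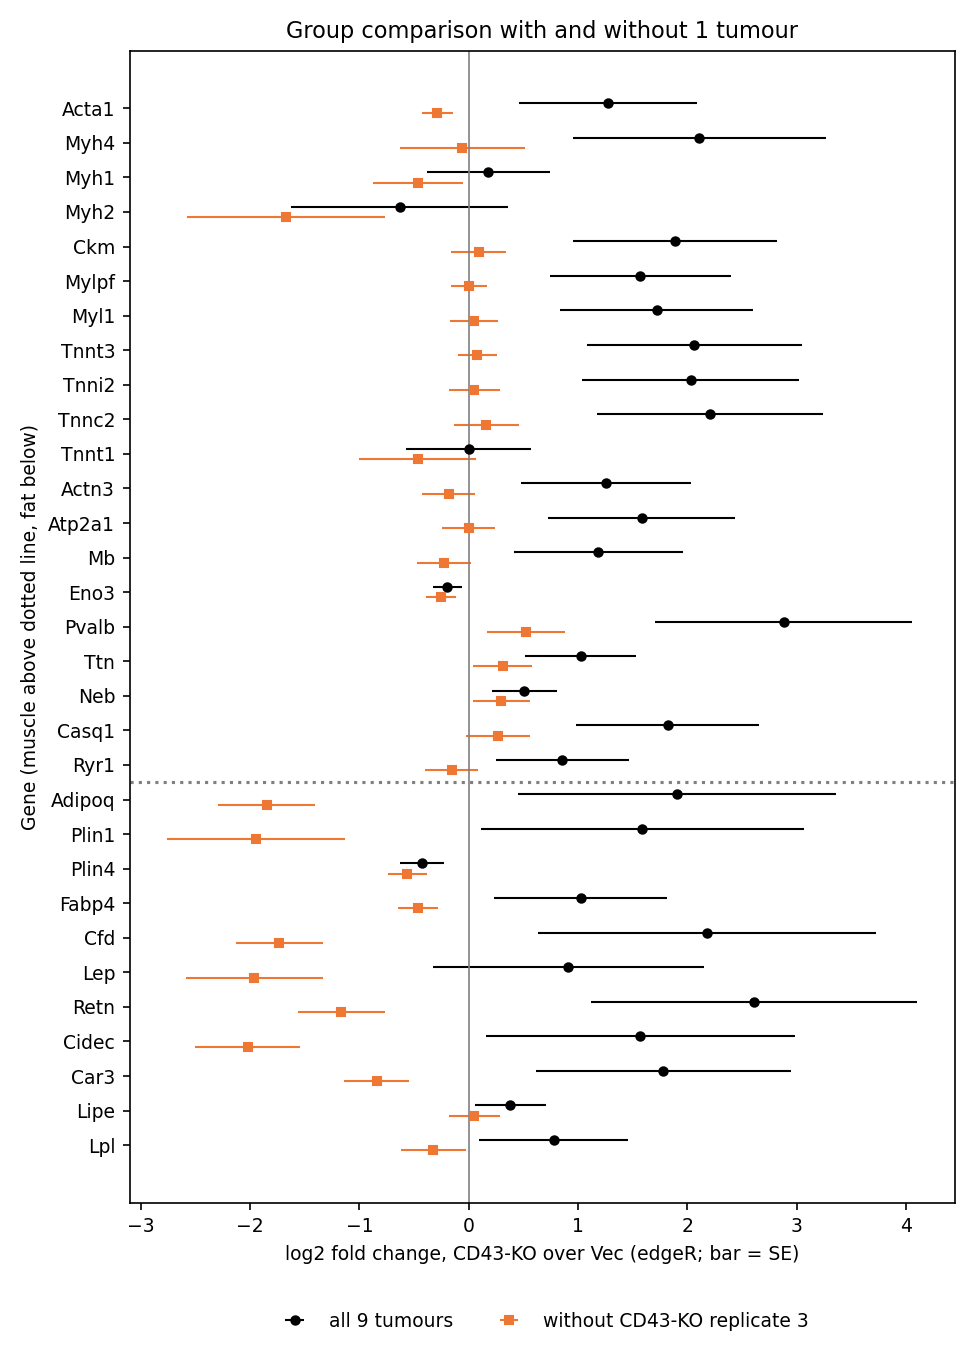
Log2 fold change, CD43-KO over Vec, from edgeR with SE bars for each tested gene, with all 9 tumours (black circles) and without CD43-KO replicate 3 (orange squares). When that tumour is left out, 10 muscle genes lie above 0 and 10 below, from -1.67 (Myh2) to 0.53 (Pvalb), and the fat genes lie below 0 apart from Lipe.

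Other lists of related genes, assembled with earlier results of these data known, put these levels in context, and 0 genes of any list were called by edgeR. Of 17 further sarcomere genes, 17 were highest in CD43-KO replicate 3 and 12 exceeded 5 times the median of the rest; the most abundant, Tpm2 (a tropomyosin also made outside skeletal muscle), was at 236 CPM against 121 to 199, Myoz1 at 24.5 against 1.11 to 2.78, and Tcap, the titin cap, at 23.7 against 1.13 to 2.72. Genes of excitation and calcium release were highest there in 11 of 13, with Trdn (triadin) at 8.78 CPM against 0.166 to 0.802. Muscle energy enzymes were highest in 12 of 13, with Cox8b, a muscle and brown fat subunit of cytochrome oxidase, at 20.5 CPM against 0.369 to 1.66, while Pfkm, at 43.5 CPM against 35.5 to 42.0, barely differed. Regulators and developmental genes of muscle were highest in 4 of 12. The most abundant of them, Chrna1, a subunit of the muscle acetylcholine receptor, was at 2.64, 2.62, 2.27 and 2.72 CPM in Vec and at 1.41, 1.002, 1.46, 1.12 and 0.980 CPM in CD43-KO tumours, all 5 below all Vec tumours. Such a separation held for 3.5% of all genes tested. The log2 fold change of Chrna1 was -1.10 ± 0.20 SE (edgeR adjusted p = 0.136), and without CD43-KO replicate 3 it was -1.19 ± 0.21 (edgeR adjusted p = 0.092). Without that tumour, fits chosen after seeing the data gave an adjusted p of 4.7e-05 in DESeq2 and 0.036 in voom. Those fits called 6.68% and 2.72% of all genes. Next in abundance came Myf6, at 1.42 CPM against 0.0764 to 0.458 and Myog at 0.882 against 0 to 0.600.

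For fat, 11 of the 12 identity genes found in the tables were highest in CD43-KO replicate 3. Of the 9 with enough counts for a ratio, 4 exceeded 5 times the median of the rest. The receptor Cd36 was at 56.9 CPM against 7.25 to 20.7, and Cebpa, a regulator of fat cells and macrophages, at 86.7 against 37.6 to 58.7, while Adipor2 was lowest there at 34.9 CPM. Enzymes of fat synthesis were highest in 5 of 15 and summed to 708 CPM there, within the 677 to 963 CPM of the others. Their median ratio to the median of the others was 0.937. Single enzymes went both ways: Acly, Fasn and Elovl6 were at 174, 97.0 and 24.0 CPM, with medians of 280, 164 and 41.7 CPM in the others. Thrsp, the lipogenic factor, was at 11.8 CPM against 0.126 to 1.47. Lipolysis genes were highest in 5 of 6. Of 8 brown fat genes 1 was highest, Ebf2 at 2.93 CPM against 0.129 to 1.37, and Ucp1, the defining protein of brown fat, was at 0 in every tumour.

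**Figure D5:**
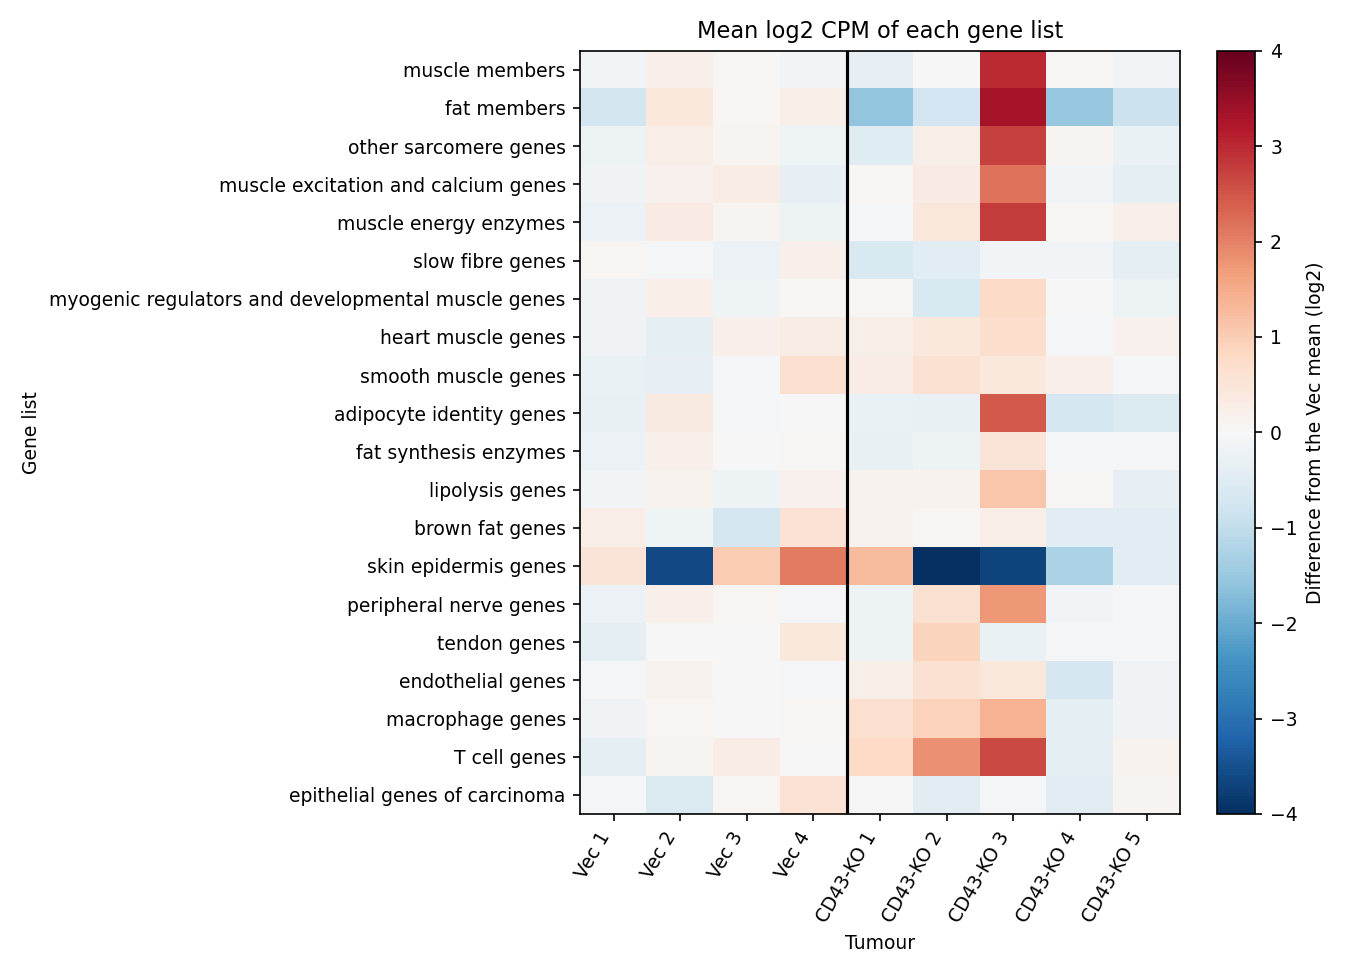
Mean log2 CPM of the genes of each list (rows) in each tumour (columns), as the difference from the Vec mean. CD43-KO replicate 3 is darkest red for the muscle, fat, sarcomere, muscle energy and T cell rows, near white for slow fibre genes at -0.11, and blue for skin at -3.71, where Vec replicate 2 (-3.62) and CD43-KO replicates 2 (-3.97), 4 (-1.26) and 5 (-0.41) are also below 0.

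Among markers of other tissues, the nerve, macrophage and T cell sums were highest in the same tumour, and the other sums given here were not. Of all genes tested, 22.8% were highest there. In that tumour, peripheral nerve genes summed to 78.7 CPM against 35.1 to 54.9 CPM, with 8 of 9 highest there. Macrophage genes summed to 2778 CPM there, against 845 to 1980 CPM, with 8 of 8 highest, and T cell genes to 90.4 CPM against 14.2 to 59.7 CPM, with 7 of 8 highest. Vec tumours ran from 986 to 1224 CPM and from 14.2 to 24.3 CPM in those 2 sums. Skin genes summed to 314 CPM there against 347 to 974 CPM, and Krt5, the keratin of basal epidermis, had 0 counts in CD43-KO replicates 2 and 3, against 45.8 CPM in Vec replicate 4. Endothelial genes summed to 139 CPM there, within the range of 76.6 to 163 CPM of the others, and 3 of 8 were highest, as were 3 of 9 heart muscle genes and 2 of 8 epithelial genes. Tendon and smooth muscle genes summed to 28.4 and 127 CPM there, below the other 8 tumours. By mean log2 CPM neither list was lowest there. Tendon genes stood at -0.253 from the Vec mean (others -0.393 to 0.881) and smooth muscle genes at 0.416 (others -0.321 to 0.655). The part of these in the muscle and fat levels was not tested.

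Outside the lists, the genes whose log2 CPM ran most like the log2 muscle sum over the 9 tumours were Mup14 (Pearson r = 0.985), Mup13, Cdo1, Des, Cmbl, Cnbp, Mup17, Mup18, Gtf3c6 and Pcolce2. For the fat sum they were Cdo1 (r = 0.987), Zmat2, Cyb5a, Scp2, Rpl3l, Des, Cnbp, Psmd10, Mup11 and Lrpap1. Points shared 9 libraries and 1 of them lay far from the rest, so these are descriptions of that tumour: Cdo1, cysteine dioxygenase, was at 22.1 CPM there against 1.31 to 2.21, and Des, desmin, at 54.3 against 11.1 to 14.4. The Mup genes encode major urinary proteins and are near-identical copies, so their reads may be shared and their values are uncertain. Over the 8 other tumours the lists changed, with Zfp9 (r = 0.981) leading for muscle and Churc1 (r = 0.990) for fat. The muscle sum used for these lists included Eno3, at 78.5 to 132.5 CPM in those 8 tumours, where the sum was 184 to 260.4 CPM. Mup13, Mup14 and Cdo1 stayed among the first 10 of their lists. Mup13 and Mup14 were candidates only through CD43-KO replicate 3, where they stood at 12.12 and 11.01 CPM. In the other 8 tumours they lay at 0.04585 to 0.3392 and 0.06113 to 0.3238 CPM. Their place in the list over 8 tumours thus depends on replicate 3 and on low levels. Muscle without Eno3 and fat sums ran together over 9 tumours (Pearson r = 0.952, Spearman rho = 0.683) and less so over 8 (r = 0.405, rho = 0.548).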

How the data were processed

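Bulk RNA sequencing was made from 9 MC38 tumours, 4 Vec and 5 CD43-KO. The authors deposited whole-number counts per gene name, 1 table per library, per the file headers and values. Per the labels' protocols, RNA was extracted with TRIzol and libraries made with the NEBNext Ultra kit. Named in the submitters' processing notes, with no role, are the build GRCm38, DESeq2, StringTie 1.3.5 and HISAT2 2.1.0. How reads were counted, on which strand and with which annotation is not given in the sources used, so reads of overlapping genes on opposite strands cannot be told apart.

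The genes and lists were chosen with earlier results of these data known. Of 42454 names, 18243 passed edgeR's filterByExpr (minimum count 10, minimum total 15). R 4.3.3 and edgeR 4.0.16 were used: TMM scaling, the quasi-likelihood F test with robust estimation and group as the only term, Benjamini-Hochberg adjustment and a threshold of 0.05. SE was the log2 fold change over the square root of F. DESeq2 1.42.0, limma 3.58.1 (voom with sample weights), other scalings and filters and leaving out each tumour were alternatives. The script was tested on simulated counts. No 2 libraries agreed within sampling noise (chi-square over its degrees of freedom was 35.7 or more in 36 pairs). Exon lengths and gene coordinates came from GENCODE M21 (GRCm38), and promoters from RefSeq GRCm38.p6. Values in every tumour or ranges are given for all 32 genes, up to 4 genes are named from each other list by mean CPM, and the 10 genes most like each sum (mean CPM at least 1) by Pearson r on log2 CPM with a prior count of 2. Genes outside these rules (Cox8b, Thrsp, Ebf2, Mybpc1, Csrp3, Myoz2, Ucp1 and Krt5) were chosen after their values were seen.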

Additional observations from a re-analysis of the deposited data

Results flagged for a closer look

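In CD43-KO replicate 3 the gap to the next CD43-KO tumour was large against the range of the group (Dixon's ratio above its 95% critical value) for 16 muscle genes, 10 fat genes and both sums. The muscle genes, in CPM, were Acta1 at 347, Myh4 at 107, Myh2 at 2.09, Ckm at 179.6, Mylpf at 142, Myl1 at 92.8, Tnnt3 at 185, Tnni2 at 142, Tnnc2 at 113, Actn3 at 29, Atp2a1 at 85.6, Mb at 42.7, Pvalb at 183, Ttn at 7.29, Casq1 at 13.7 and Ryr1 at 8.38. The fat genes, in CPM, were Adipoq at 51.2, Plin1 at 8.29, Fabp4 at 261, Cfd at 349.7, Lep at 5.9, Retn at 29.2, Cidec at 37.7, Car3 at 163, Pck1 at 4.5 and Lpl at 106. The sums were 1806 CPM for muscle and 1047 CPM for fat. In the Vec group, Myh1 was unusually low in replicate 3, at 2.58 CPM. Of 68 gene and sum groups tested, 29 stood out in this way and 28 of them were CD43-KO replicate 3. Chance gives about 1 in 20 in groups not chosen for it, but these genes were picked with their levels in these tumours known, so the count is a description and no test. The genes of a tumour are not independent of each other.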

How the results depend on the processing

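Scaling by DESeq2 size factors or by TMM without the muscle and fat lists, and testing without a filter, kept the direction of the log2 fold change of the 31 genes tested. Neither of these scalings moved the group means of the 2 sums by more than the spread between tumours. The number of genes called was 1 with no filter, 612 in DESeq2 and 562 in limma voom, and 0 to 29 when 1 tumour was left out, with 29 without Vec replicate 3 and 1 each without Vec replicate 2 and CD43-KO replicate 2. The median log2 fold change of the muscle genes was 0.041 in voom and 0.0020 to 1.67 over the tumours left out, and that of the fat genes -0.68 and -1.16 to 1.88, the lowest of both without CD43-KO replicate 3. Voom, which gives tumours unequal weights, reversed the sign of Acta1 -0.21, Myh4 -0.059, Myh1 -0.84, Actn3 -0.070, Atp2a1 -0.058, Mb -0.16, Ryr1 -0.13, Adipoq -1.91, Plin1 -0.48, Fabp4 -0.20, Cfd -1.44, Lep -2.31, Retn -0.79, Cidec -1.73, Car3 -0.66, Lpl -0.063. Tnnt1, at -0.0013 in edgeR, was with total counts only at 0.073 and with a minimum count of 50 at 0.0072. Ranges of log2 fold change over the tumours left out were Acta1 -0.29 to 1.52, Myh4 -0.058 to 2.39, Myh1 -0.46 to 0.40, Tnnt1 -0.47 to 0.26, Actn3 -0.18 to 1.49, Atp2a1 -0.0011 to 1.84, Mb -0.22 to 1.43, Ryr1 -0.16 to 1.06, Adipoq -1.85 to 2.22, Plin1 -1.95 to 1.91, Fabp4 -0.46 to 1.28, Cfd -1.73 to 2.49, Lep -1.96 to 1.23, Retn -1.16 to 2.92, Cidec -2.02 to 1.89, Car3 -0.84 to 2.08, Lpl -0.32 to 1.02. Chosen after seeing the data, DESeq2 without CD43-KO replicate 3 called 1204 genes, with medians of 0.0058 for muscle and -1.16 for fat, and gave Acta1 -0.28, Myh4 -0.050, Myh1 -0.46, Actn3 -0.18, Mb -0.22, Ryr1 -0.15, Adipoq -1.85, Fabp4 -0.46, Cfd -1.73, Retn -1.16, Cidec -2.02, Car3 -0.84, Lpl -0.32. Voom without it called 490 genes, with medians of -0.12 and -0.88, and gave Acta1 -0.39, Myh4 -0.30, Myh1 -0.91, Mylpf -0.024, Tnni2 -0.041, Actn3 -0.23, Atp2a1 -0.24, Mb -0.32, Ryr1 -0.25, Adipoq -2.18, Plin1 -0.77, Fabp4 -0.38, Cfd -1.71, Lep -2.49, Retn -1.06, Cidec -1.97, Car3 -0.88, Lpl -0.22. For the reversals in voom the cause was not tested. No paired analysis was possible because the labels give no replicate number that the groups share. Counts of Plin1, Lep, Pck1 and Myh2 were as low as 0 to 2 in a tumour, which limits their folds.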

Other observations

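The 129 genes set apart in CD43-KO replicate 3 included 111 that were not predicted, clone-named, pseudogene, numbered-copy, antibody or T cell receptor entries. Outside the lists, the most abundant of the 111 were Chil3 at 989 CPM (highest elsewhere 44.2), Ccl8 at 971 CPM (173) and Retnla at 93.3 CPM (15). Chil3 and Retnla are known from alternatively activated macrophages. Next among the first 10 came Mup22 at 64.0 CPM (3.59), Inmt at 61.2 CPM (9.06), Mup10 at 49.1 CPM (2.91) and Cyp2e1 at 38.7 CPM (1.90). The last of the 10 were Mup17 at 27.0 CPM (1.19), Mup11 at 26.6 CPM (1.54) and Cdo1 at 22.1 CPM (2.21). Reads of the Mup genes may be shared, so their values are uncertain. In Vec replicate 3, Rn45s, a ribosomal RNA precursor, was at 1606 CPM with 156 CPM as the highest elsewhere.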
